A study of Homo sapiens with 6 samples.

Results

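The unfolded protein response and the ATF4 stress response were examined in PC-3 cells, an established human prostate cancer line, through 36 genes chosen by symbol from the 64253 genes of the deposited count tables. RNA was sequenced in 3 libraries from PC-3 cells with an shRNA that targets CdGAP (shCdGAP) and 3 libraries from PC-3 cells with a control shRNA (shCon), with no other treatment stated. CdGAP, encoded by ARHGAP31, is a GTPase-activating protein that turns off the small GTPases Rac1 and Cdc42. By the study's methods the hairpins were delivered with lentiviruses and CdGAP-depleted PC-3 cells were selected with puromycin and grown as single-cell clones, while cloning is not stated for the control cells, so the depletion and the choice of a clone cannot be told apart. The methods name 3 independent samples per group, and no source says how the cultures were separated, so p-values measure the spread between these libraries.

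Proteins that enter the secretory pathway are folded in the endoplasmic reticulum (ER), and a build-up of unfolded protein there is sensed by EIF2AK3 (the kinase PERK), ERN1 (the kinase and RNase IRE1) and ATF6. PERK is a member of a kinase family that phosphorylates the translation factor eIF2α, which lowers general translation and favours translation of ATF4, a transcription factor for amino acid synthesis, transport and stress genes. ERN1 splices XBP1 mRNA and ATF6 is cut in the Golgi, and the resulting XBP1 and ATF6 factors raise chaperones, disulfide enzymes and the machinery of ER-associated degradation (ERAD). The 36 genes were therefore read as 5 sensors and master factors, 16 genes of the ATF4 arm and 15 genes of the XBP1/ATF6 arm. Gene counts carry neither the splicing of XBP1 nor the translation of ATF4.

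The libraries held between 33182796 and 43154039 counted reads. ARHGAP31 had 26.4, 27.1 and 26.9 CPM (read counts scaled to a common, TMM-adjusted library size) in shCdGAP libraries against 58.9, 60.6 and 58.2 CPM in shCon libraries, at an edgeR log2 fold change of -1.14 (adjusted p = 8.75e-08). All 6 marker genes fixed for a PC-3 type epithelial line (KRT8, KRT18, KRT19, EPCAM, VIM and CD44) were above 1 CPM in every library, with summed levels of 2565 to 2970 CPM in shCdGAP and 1638 to 1690 CPM in shCon. Of 5 prostate luminal markers, 4 were below 1 CPM in every library, and KLK2 and KLK3 had no read. Among 8 markers of blood, endothelial and stromal cells, 4 were below 1 CPM everywhere, CD3E had no read, and the sum was 61.9 to 68.9 CPM in shCdGAP against 24.8 to 26.6 CPM in shCon. Most of that sum was COL1A1, at 55.9 to 59.3 CPM in shCdGAP and 17.3 to 19.0 CPM in shCon. Of the 4 tested genes of this list, 3 were higher at an edgeR adjusted p under 0.01. Their log2 fold changes were 1.67 for COL1A1, 1.55 for CD68 and 0.63 for ACTA2. PECAM1 had a log2 fold change of -0.57 that did not pass. The part of these markers in the results was not tested. Replicate 2 of shCdGAP stood apart: it was the highest or lowest library of its group for 33 of the 36 members and for 83.0% of all tested genes, so member calls that turned on it are given with and without it. The shCdGAP libraries left without it lie closer together, and 60.0% of all tested genes then passed, against 46.2% with all libraries. A call gained without it is therefore no separate evidence for that gene.

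All 36 genes passed the expression filter. In edgeR's quasi-likelihood test over 16439 genes, 14 members (38.9%) were higher and 5 members (13.9%) lower in shCdGAP cells at a Benjamini-Hochberg adjusted p under 0.01. Over all tested genes the same rule called 24.1% higher and 22.0% lower, and 46.2% in either direction against 52.8% of the members. With the study's added limit of an absolute log2 fold change above 1, 1 member (VLDLR) was called higher and 1 member (DNAJC3) lower, or 5.56% of the list, where 12.8% of all tested genes were called (8.56% higher and 4.19% lower). The median log2 fold change was 0.05 over the members and 0.01 over all tested genes. The groups did not overlap for 22 members (61.1%), against 67.1% of all tested genes. Most members therefore moved by less than 1 on the log2 scale, in both directions. Without shCdGAP replicate 2 the same test gave 15 members higher and 11 lower, while the share of all genes passing rose to 60.0%. Without shCon replicate 2 or 3 it gave 9 higher and 5 lower, where the share of all genes passing fell to 34.8% and 35.6%.

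**Figure D1:**
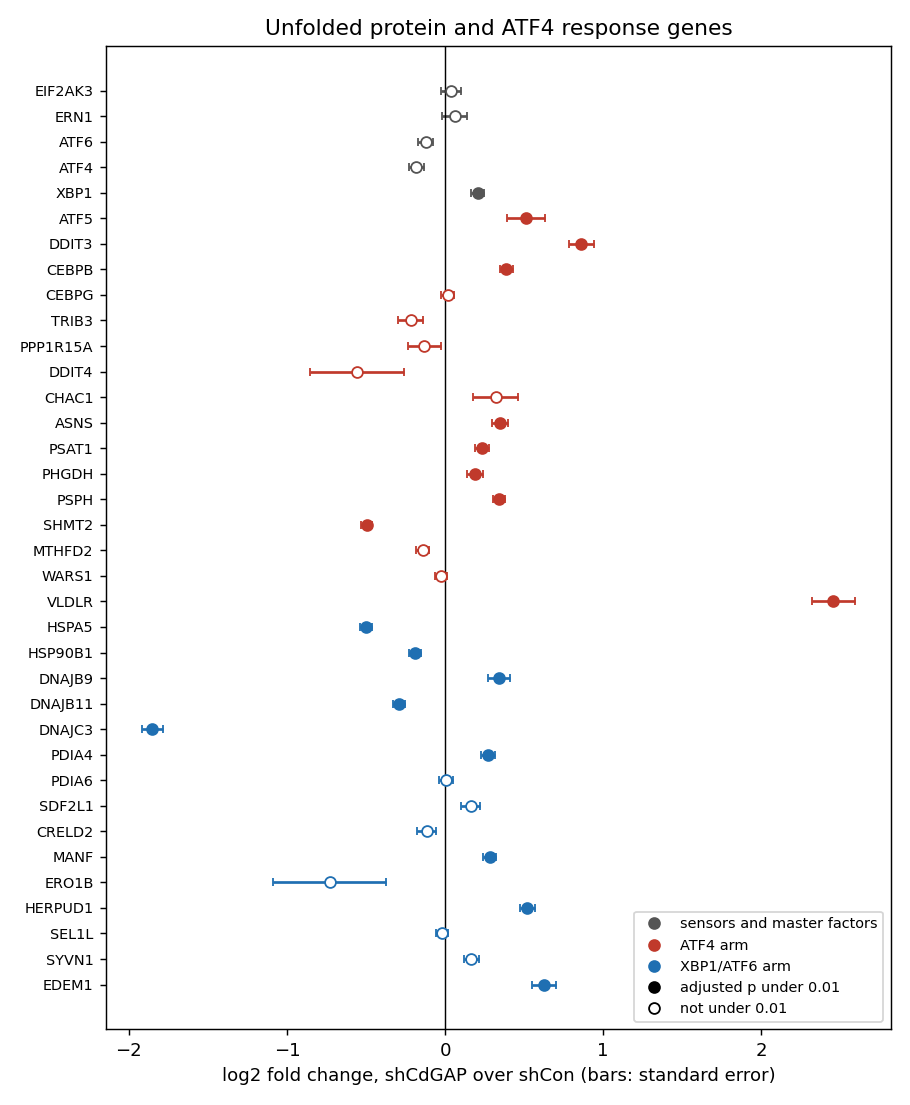
Log2 fold change of each of the 36 genes in shCdGAP over shCon cells, with bars for the standard error. Filled points passed an adjusted p of 0.01. VLDLR at 2.45 and DNAJC3 at -1.85 lie outside the range from -1 to 1 that holds the other 34 genes.

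The 3 sensors did not pass the test with all libraries. EIF2AK3 had 31.2, 27.6 and 28.0 CPM in shCdGAP and 27.1, 28.4 and 29.1 CPM in shCon libraries (log2 fold change 0.04, standard error (SE) 0.0606, adjusted p = 0.616). ERN1 had 60.8, 75.3 and 61.8 CPM against 60.9, 64.8 and 64.4 CPM, and replicate 2 of shCdGAP was its highest library. For ATF6 the values were 91.5, 96.8 and 90.1 CPM against 100.5, 106 and 96.5 CPM, with a log2 fold change of -0.12 (adjusted p = 0.0497). The shCdGAP and shCon libraries overlapped for all 3 genes, but for ATF6 only through shCdGAP replicate 2, without which ATF6 passed as lower (log2 fold change -0.16, adjusted p = 4.83e-05).

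The 2 master factors lay on opposite sides of zero. XBP1 rose, with 70.4, 67.9 and 71.9 CPM in shCdGAP against 59.9, 61.8 and 60.4 CPM in shCon libraries, a log2 fold change of 0.21 (SE 0.0391, adjusted p = 0.00170). Its call was lost without shCon replicate 1, 2 or 3, where the adjusted p ran from 0.0108 to 0.0197. ATF4 mRNA had 133, 151 and 139 CPM against 156, 161 and 163 CPM. All shCdGAP values lay below all shCon values, yet at -0.18 (log2 fold change, SE 0.0493, adjusted p = 0.0114) the gene missed the threshold narrowly. Without shCdGAP replicate 2, its highest shCdGAP library, the ATF4 log2 fold change was -0.24 (adjusted p = 9.60e-10). The other eIF2α kinases, eIF2α itself (EIF2S1) and the subunits of eIF2B, its exchange factor, are no members and had small values. Of 9 such genes, EIF2B3 rose (log2 fold change 0.29) and EIF2B5 and EIF2AK4 fell (-0.24 and -0.20), and 6 did not pass. Thus 11.1% were higher and 22.2% lower, against 24.1% and 22.0% of all tested genes. The calls of EIF2B3 and EIF2B5 were lost without shCon replicate 1, 2 or 3.

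In the ATF4 arm, 8 of 16 genes were higher and 1 was lower at an adjusted p under 0.01, and 7 did not pass. Over all tested genes 24.1% were higher and 22.0% lower. The median log2 fold change of the arm was 0.21. Relative to the mean of the shCon libraries the median of the arm lay at 0.23, 0.16 and 0.19 (log2) in the 3 shCdGAP libraries and between -0.02 and 0.03 in the shCon libraries. Leaving out shCdGAP replicate 1, or any one shCon library, reduced the higher genes to 5, and over all tested genes the higher calls fell from 3963 to between 2953 and 3305 under the same settings. Without shCdGAP replicate 2 they stayed at 8, and the lower genes numbered 4.

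Among the arm's transcription factors, DDIT3 showed the highest fold change. DDIT3 encodes CHOP, a factor known for its link between prolonged ER stress and cell death (chromosome 12 from 57516588 to 57520517, GRCh38). It had 12.6, 11.7 and 13.1 CPM in shCdGAP libraries against 6.58, 6.99 and 6.99 CPM in shCon libraries. The groups were far apart relative to their spread (12.5 ± 0.729 against 6.85 ± 0.238 CPM, SD, n = 3 each), with a log2 fold change of 0.86 (SE 0.0783, adjusted p = 1.94e-05 by edgeR), and the call was kept in all 12 alternatives run. CEBPB, a partner of ATF4 and CHOP in dimers, rose from 74.4, 75.7 and 70.1 CPM to 97.4, 93.7 and 97.1 CPM (log2 fold change 0.39, adjusted p = 5.57e-05). ATF5, itself favoured in translation under eIF2α phosphorylation, had 109, 79.1 and 106 CPM against 64.7, 72.5 and 69.1 CPM. Replicate 2 of shCdGAP lay close to the shCon libraries for this gene, and the ATF5 log2 fold change of 0.51 (adjusted p = 0.00890) did not pass in 6 of 12 alternatives. CEBPG, a further dimer partner, did not pass, with 65.0, 62.5 and 65.8 CPM against 62.2, 64.8 and 64.2 CPM.

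None of the 4 feedback and stress effectors of the arm passed the test with all libraries. DDIT4 encodes REDD1, an inhibitor of mTORC1. It had 99.4, 189 and 96.0 CPM in shCdGAP replicates 1, 2 and 3 against 177, 192 and 197 CPM in shCon libraries. Replicates 1 and 3 were well below every shCon library, while replicate 2 lay among them. DDIT4 had a log2 fold change of -0.56 in the full set (SE 0.297, adjusted p = 0.168) and -0.96 without shCdGAP replicate 2 (adjusted p = 2.13e-12). TRIB3, a pseudokinase that restrains ATF4 and CHOP, showed the same arrangement with 67.0, 82.1 and 67.2 CPM against 80.9, 86.4 and 84.2 CPM. The log2 fold change of TRIB3 was -0.22 (adjusted p = 0.0412) with all libraries and -0.33 (adjusted p = 2.10e-11) without replicate 2. PPP1R15A, the GADD34 subunit that leads a phosphatase to eIF2α, had 22.3, 16.8 and 22.1 CPM against 21.9, 22.7 and 22.2 CPM, so that replicate 2 was the low library here. CHAC1, a glutathione-degrading enzyme and a common ATF4 reporter gene, was the lowest in level of these, with 3.55, 3.21 and 3.90 CPM against 2.62, 3.29 and 2.57 CPM (log2 fold change 0.32, SE 0.141, adjusted p = 0.0784).

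**Figure D2:**
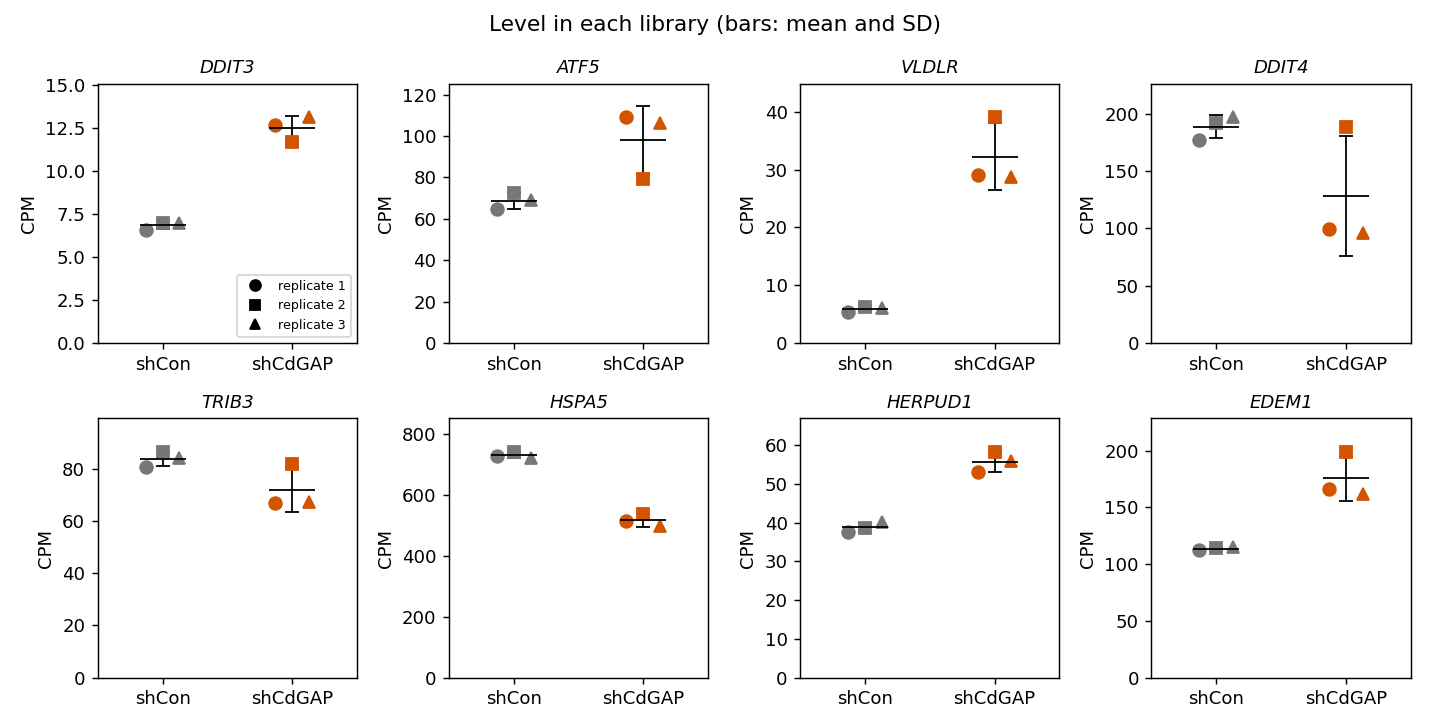
CPM of 8 members in each library, with the mean and SD of 3 libraries per group as bars and the replicate number as marker shape; each vertical axis starts at 0. For DDIT4 and TRIB3 the square of shCdGAP replicate 2 lies near the shCon libraries, while for DDIT3, VLDLR, HSPA5, HERPUD1 and EDEM1 all 3 shCdGAP libraries lie to one side.

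Of the 7 amino acid and one-carbon genes of the arm, 4 (57.1%) rose, 1 (14.3%) fell and 2 did not pass. The shares over all tested genes were 24.1% higher and 22.0% lower. The serine synthesis enzymes moved up together. PHGDH, PSAT1 and PSPH catalyse successive steps from 3-phosphoglycerate to serine. PSPH had 84.3, 84.6 and 80.0 CPM in shCdGAP against 64.9, 65.7 and 65.5 CPM in shCon libraries (log2 fold change 0.34, SE 0.0380, adjusted p = 6.48e-05). PSAT1 had 184, 166 and 184 CPM against 152, 154 and 148 CPM (log2 fold change 0.23, adjusted p = 0.00209). PHGDH had 102, 110.0 and 97.2 CPM against 90.1, 92.5 and 88.6 CPM (log2 fold change 0.19, adjusted p = 0.00903). The groups did not overlap for any of these genes, but the call was lost in 4 of 12 alternatives for PSAT1 and in 5 of 12 for PHGDH, and in none for PSPH. ASNS, which makes asparagine from aspartate, rose from 30.7, 31.4 and 31.1 CPM to 41.9, 37.7 and 38.9 CPM, a log2 fold change of 0.35 (SE 0.0514, adjusted p = 0.000392). SHMT2 and MTHFD2, the mitochondrial enzymes that use serine and its one-carbon unit, went the other way in value. SHMT2 fell from 257, 258 and 258 CPM to 177, 188 and 182 CPM, a log2 fold change of -0.50 (SE 0.0344, adjusted p = 3.83e-06) that was kept in all 12 alternatives. MTHFD2 had 195, 180.3 and 196 CPM against 208, 215 and 207 CPM, and did not pass at a log2 fold change of -0.14 (adjusted p = 0.0163). Without shCdGAP replicate 2, where 60.0% of all tested genes passed, MTHFD2 passed as lower at a smaller log2 fold change (-0.11, adjusted p = 0.000220). By DESeq2 MTHFD2 passed as lower too (adjusted p = 0.00711). WARS1, the cytosolic tryptophanyl-tRNA synthetase, did not pass either, with 192, 182 and 195 CPM against 193, 193 and 194 CPM.

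VLDLR, a lipoprotein receptor listed with the arm as a stress-induced target, had the highest fold change of the 36 genes. Its level was 29.0, 39.1 and 28.8 CPM in shCdGAP libraries against 5.39, 6.23 and 6.08 CPM in shCon libraries. Every shCdGAP library was far above every shCon library. The difference of 32.3 ± 5.86 against 5.90 ± 0.451 CPM (SD, n = 3 each) was 5.48-fold, a log2 fold change of 2.45 (SE 0.136, adjusted p = 1.95e-06). Without the high replicate 2 the log2 fold change was 2.29. VLDLR lies near the end of the short arm of chromosome 9 (from 2621834 to 2660053), where the 20 nearest tested genes had a median log2 fold change of -0.46, opposite in sign to its own.

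Known response elements were searched in the promoters to set the values of these genes beside their sequence. RefSeq promoter windows (GRCh38.p14, 250 bases before and 50 after each start) matched 34 of the 36 genes, the genes without a window being SHMT2 and PSPH. The core of the amino acid response element bound by ATF4 dimers, TGATGNAA on either strand, was present in 4 of the 47 windows of member genes. These windows belong to ASNS, CEBPG, CHAC1 and HERPUD1. Of all 35116 windows, 3.62% held the core. The sites are shown because ASNS and HERPUD1 were called higher in shCdGAP cells, while CEBPG and CHAC1 did not pass. The log2 fold changes of CHAC1 (0.32, SE 0.141) and ASNS (0.35, SE 0.0514) were close. The calls therefore do not show that these 2 genes responded differently. Each is written 5′ to 3′ in the direction of the element with 10 flanking bases, and capitals mark the fixed letters of the motif.
ASNS (68 bases before the start, same strand as the gene): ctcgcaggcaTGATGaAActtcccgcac
CEBPG (42 bases before, same strand): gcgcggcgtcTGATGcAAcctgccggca
CHAC1 (209 bases before, opposite strand): ctggcaggagTGATGcAAcggcagggga
HERPUD1 (176 bases before, opposite strand): gggcacgggcTGATGcAAcccgccgcgt

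The 250 bases before the start of ASNS, chr7:97872409-97872658 on the minus strand, place the element near the gene's start, again in capitals.
ASNS promoter: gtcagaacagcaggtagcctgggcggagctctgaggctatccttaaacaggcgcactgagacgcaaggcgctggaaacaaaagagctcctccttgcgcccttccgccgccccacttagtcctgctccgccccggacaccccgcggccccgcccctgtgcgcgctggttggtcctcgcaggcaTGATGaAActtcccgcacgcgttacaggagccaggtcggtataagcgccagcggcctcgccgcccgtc

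In the XBP1/ATF6 arm, 5 of 15 genes (33.3%) were higher and 4 (26.7%) lower at an adjusted p under 0.01, and 6 did not pass. These shares lay near those of all tested genes, 24.1% higher and 22.0% lower. The median log2 fold change of the arm was 0.01, and its median relative to shCon was -0.02, 0.10 and -0.05 in the shCdGAP libraries. Among the 8 chaperones, cochaperones and ER stress-secreted proteins 4 fell and 2 rose, while among the 3 disulfide enzymes and the 4 ERAD genes 3 rose and none fell. The difference between the roles, and that between this arm and the ATF4 arm, was not tested.

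**Figure D3:**
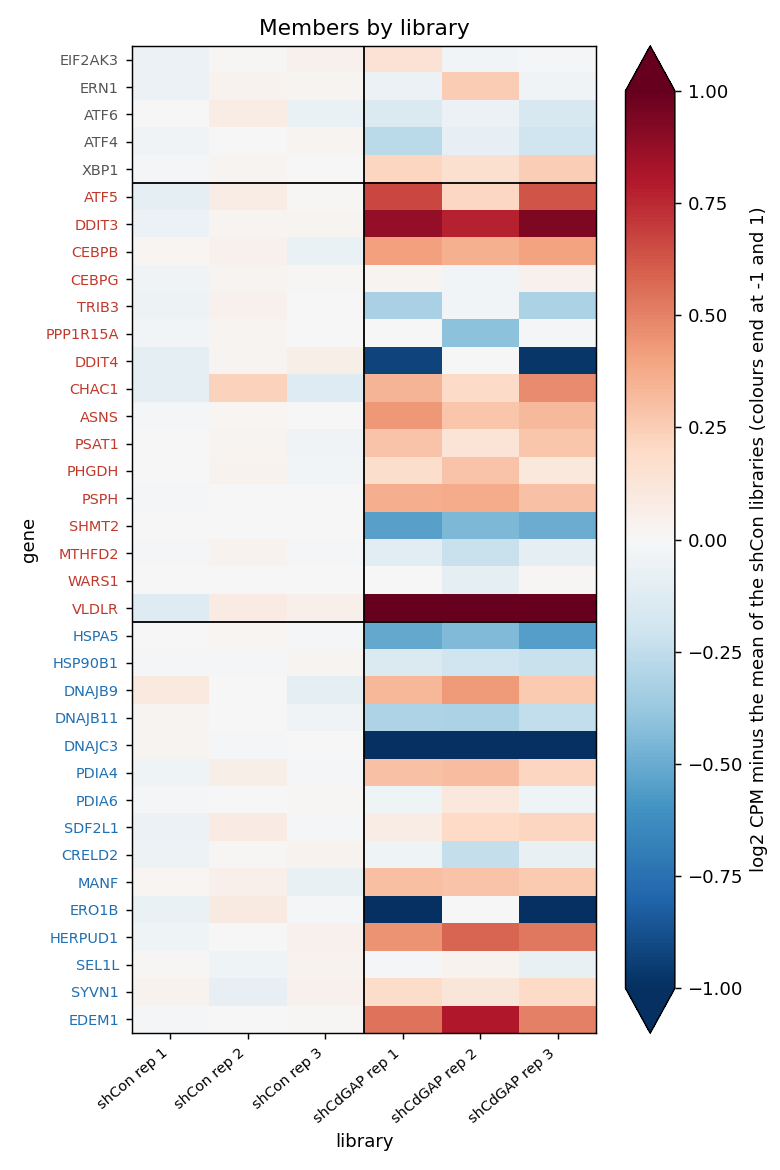
Each member's log2 CPM in each of the 6 libraries minus the mean of the shCon libraries, with red for higher and blue for lower, colours ending at -1 and 1, and horizontal lines between the sensors and master factors, the ATF4 arm and the XBP1/ATF6 arm. DDIT4 and ERO1B are blue in shCdGAP replicates 1 and 3 and near white in replicate 2, and the XBP1/ATF6 arm holds rows of both colours.

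HSPA5, HSP90B1, DNAJB11 and DNAJC3 were lower. HSPA5 encodes BiP, the main Hsp70 of the ER, which also holds the sensors inactive. It had 512, 538 and 498 CPM in shCdGAP against 728, 739.8 and 720.2 CPM in shCon libraries, and the groups were far apart. Its level fell by 29.2%, a log2 fold change of -0.50 (SE 0.0383, adjusted p = 6.99e-06), and the call was kept in all 12 alternatives. HSP90B1, the ER Hsp90 known as GRP94, had 1161, 1124 and 1101 CPM against 1275, 1273 and 1313 CPM, a log2 fold change of -0.19 (adjusted p = 0.00151). DNAJB11, an Hsp40 partner of BiP, fell from 122, 119.9 and 117 CPM to 96.4, 95.9 and 101 CPM (log2 fold change -0.29, adjusted p = 0.000154). DNAJC3, the cochaperone P58IPK, had 20.5, 23.3 and 19.3 CPM against 77.4, 74.7 and 75.7 CPM. The level fell by 1.85 on the log2 scale (SE 0.0659, adjusted p = 8.52e-08), and no other member had a lower fold change.

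The other genes of this group did not share that direction. DNAJB9, the cochaperone ERdj4 and a marker of XBP1 splicing, rose from 15.4, 14.3 and 13.5 CPM to 18.1, 19.3 and 17.3 CPM (log2 fold change 0.34, adjusted p = 0.00289), a call that was lost in 3 of 12 alternatives. MANF, a secreted protein retained by BiP, rose from 118, 121 and 111 CPM to 144, 142 and 139 CPM (log2 fold change 0.28, SE 0.0412, adjusted p = 0.000365). SDF2L1 and CRELD2, small ER proteins induced by ER stress in many cells, did not pass, with log2 fold changes of 0.16 and -0.12 and overlapping groups.

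HSPA5 and DNAJC3 lie in stretches where neighbouring genes were lower as well. Over chromosome 13 the 271 tested genes had a median log2 fold change of -0.99, and over chromosome 9 the 662 tested genes one of -0.42. DNAJC3 (chromosome 13 from 95677139 to 95794989) stood at -1.85 beside a median of -1.73 for the 20 nearest tested genes, a difference of -0.12. UGGT2, the glucosyltransferase gene next to it and no member, fell by 1.57 on the log2 scale. HSPA5 (chromosome 9 from 125234853 to 125241330) stood at -0.50 beside -0.81 for its neighbours, so it was 0.31 higher than they were. ATF4, on chromosome 22, had a value of -0.18 beside a median of -0.20 for its neighbours, a difference of 0.0182. PSAT1, on chromosome 9, rose among neighbours with a median of -0.11, as did CEBPB (-0.10) and EDEM1 (-0.08). Some higher members lay among higher neighbours: DDIT3 stood at 0.86 beside 0.31, ASNS at 0.35 beside 0.20, MANF at 0.28 beside 0.38 and PHGDH at 0.19 beside 0.22. Relative to neighbours the median was 0.11 over the ATF4 arm and -0.02 over the XBP1/ATF6 arm, against 0.21 and 0.01 without that reference. Without the members on chromosomes 9 and 13, 12 members were higher and 3 lower, the lower genes being SHMT2, HSP90B1 and DNAJB11, and none passed the limit of 1. The part of chromosomal position in the results was not tested.

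**Figure D4:**
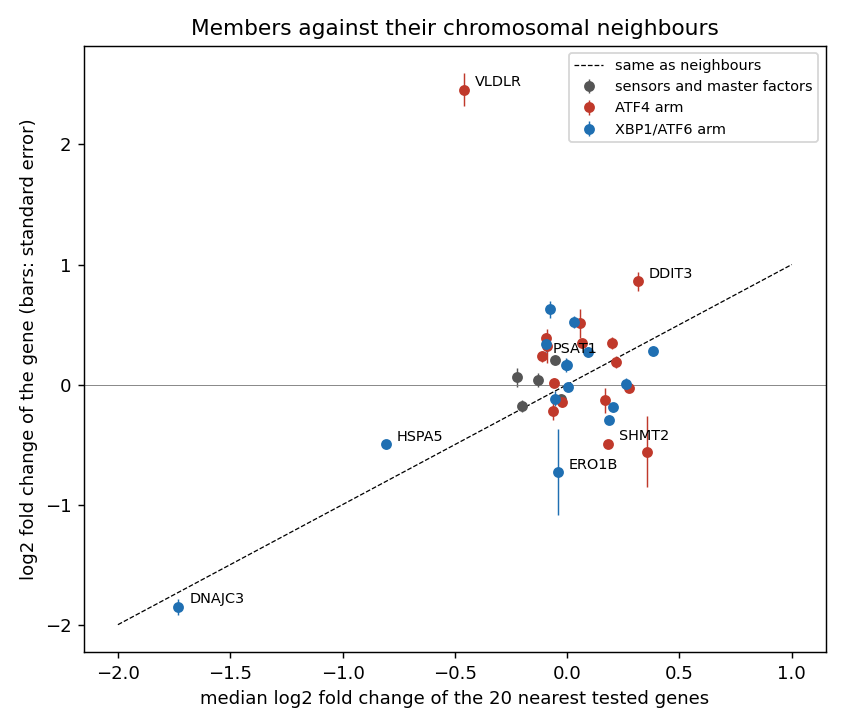
Log2 fold change of each member, with its standard error, against the median log2 fold change of the 20 nearest tested genes on its chromosome; the dashed line marks equality. DNAJC3 (-1.85 against -1.73) lies close to the line, HSPA5 (-0.50 against -0.81) above it, and VLDLR (2.45 against -0.46) farthest from it.

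Of the 4 chaperones and cochaperones that fell, HSPA5 and HSP90B1 held the exact ER stress response element (ERSE) in their promoter windows, and DNAJB11 and DNAJC3 did not. The ERSE is a CCAAT box and CCACG separated by 9 bases, which is known to bind NF-Y together with ATF6 or XBP1. With exactly these letters on either strand, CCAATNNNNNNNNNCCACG was found in 6 of the 47 windows of member genes, in 6 genes, and in 0.0769% of all windows. These sites are shown because genes with the same fixed letters differed in value. HSPA5 and HSP90B1 fell, XBP1 rose, and PDIA6, CRELD2 and ERO1B did not pass. The log2 fold change of ERO1B (-0.73, SE 0.359) was lower in value than that of HSPA5 (-0.50, SE 0.0383). HSP90B1 held a pair of sites. Each sequence runs 5′ to 3′ in the direction of the element with up to 10 flanking bases, with the fixed letters in capitals.
HSPA5 (66 bases before the start): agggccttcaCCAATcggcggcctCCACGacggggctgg
HSP90B1 (194 bases before): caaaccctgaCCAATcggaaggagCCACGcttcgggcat
HSP90B1 (89 bases before, opposite strand): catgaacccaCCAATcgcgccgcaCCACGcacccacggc
XBP1 (52 bases before): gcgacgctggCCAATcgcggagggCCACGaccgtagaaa
PDIA6 (86 bases before): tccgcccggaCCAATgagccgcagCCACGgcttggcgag
CRELD2 (80 bases before, opposite strand): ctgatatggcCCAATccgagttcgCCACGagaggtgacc
ERO1B (243 bases before, opposite strand): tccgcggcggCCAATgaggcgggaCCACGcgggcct

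The HSPA5 promoter, chr9:125241344-125241593 on the minus strand, is given in full for the 250 bases before the start. Its exact ERSE is in capitals.
HSPA5 promoter: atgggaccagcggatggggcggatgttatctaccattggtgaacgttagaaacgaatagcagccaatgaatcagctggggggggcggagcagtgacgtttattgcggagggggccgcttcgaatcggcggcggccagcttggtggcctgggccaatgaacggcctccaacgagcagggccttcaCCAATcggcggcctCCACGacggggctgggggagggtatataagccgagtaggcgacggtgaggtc

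Of the disulfide enzymes, PDIA4, an ER protein disulfide isomerase, rose from 389, 419 and 397 CPM to 493, 496 and 465 CPM (log2 fold change 0.27, SE 0.0423, adjusted p = 0.000546). PDIA6, an isomerase that also acts on ERN1, did not pass, with 391, 433 and 391 CPM against 399, 405 and 406 CPM. ERO1B, an oxidase that renews the isomerases, had the lowest level of the 36 genes per length, with 0.691, 1.47 and 0.436 CPM in shCdGAP against 1.41, 1.56 and 1.45 CPM in shCon libraries. Replicate 2 of shCdGAP again lay among the shCon libraries. The log2 fold change of ERO1B was -0.73 with all libraries (adjusted p = 0.113) and -1.37 without that library (adjusted p = 7.10e-06), which was then a second member past the lower limit of -1.

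The ERAD genes included the 2 highest calls of the XBP1/ATF6 arm. EDEM1, a lectin-like protein that sends misfolded glycoproteins to degradation (chromosome 3 from 5187646 to 5219957), had 166, 199 and 162 CPM in shCdGAP against 113, 114 and 115 CPM in shCon libraries. The shCon libraries were tightly grouped and every shCdGAP library was well above them (176 ± 20.2 against 114 ± 1.23 CPM, SD, n = 3 each). EDEM1 thus rose with a log2 fold change of 0.63 (SE 0.0731, adjusted p = 0.000124). HERPUD1, a ubiquitin-like membrane protein that organises the ERAD complex (chromosome 16 from 56932048 to 56944863), had 52.9, 58.1 and 55.8 CPM against 37.6, 38.7 and 40.04 CPM. Its log2 fold change of 0.52 (SE 0.0490, adjusted p = 2.38e-05) and that of EDEM1 were called in all 12 alternatives. SYVN1, the ERAD ubiquitin ligase HRD1, had 59.7, 57.3 and 60.2 CPM against 54.0, 49.7 and 54.2 CPM and did not pass (log2 fold change 0.17, adjusted p = 0.0141). Without shCdGAP replicate 2 SYVN1 passed as higher (0.18, adjusted p = 7.12e-05). Its span overlaps FAU on the same strand, so its count may be incomplete. SEL1L, the adaptor that holds HRD1, did not pass, with 152, 157 and 146 CPM against 155, 149 and 157 CPM.

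HERPUD1 was the member whose window held both kinds of element, the ATF4 core described above and ERSE-II (ATTGGNCCACG), which was otherwise found in the window of SDF2L1 and in 0.0541% of all windows. The unfolded protein response element TGACGTGG was found in no member's window and in 0.729% of all windows. The sequence before the HERPUD1 start, chr16:56931892-56932141 on the plus strand, is shown with the ATF4 core (as its reverse complement, upstream) and ERSE-II in capitals.
HERPUD1 promoter: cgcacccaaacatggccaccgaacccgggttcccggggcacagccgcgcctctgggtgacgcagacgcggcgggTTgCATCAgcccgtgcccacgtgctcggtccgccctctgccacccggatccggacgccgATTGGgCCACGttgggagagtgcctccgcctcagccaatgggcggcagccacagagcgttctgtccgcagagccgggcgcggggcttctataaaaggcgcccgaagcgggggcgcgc

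Scaled by exon length, as CPM per kilobase of exon (RPKM), the members ranged from 275 RPKM for HSP90B1 to 0.275 RPKM for ERO1B in shCon cells. The 4 highest genes in shCon cells were all folding genes of the XBP1/ATF6 arm, namely HSP90B1, HSPA5 (187 ± 2.52), PDIA4 (123 ± 4.68) and PDIA6 (98.3 ± 0.832 RPKM, SD, n = 3). In shCdGAP cells HSPA5 stood at 132 ± 5.19 and PDIA4 at 148 ± 5.28 RPKM (SD, n = 3), so that PDIA4 came to lie above HSPA5. In shCon cells PDIA6 was followed by DDIT4 (91.8 ± 4.98), PSAT1 (69.1 ± 1.45), ATF4 (63.6 ± 1.43) and MANF (55.3 ± 2.47 RPKM, SD, n = 3). Lower in shCon cells stood HERPUD1 (7.52 ± 0.234), PPP1R15A (7.20 ± 0.141) and ASNS (6.97 ± 0.0807 RPKM, SD, n = 3). The levels of DDIT3 (5.41), CRELD2 (5.38), EIF2AK3 (5.19) and DNAJB9 (5.07 RPKM) differed by little more than their SDs of 0.162 to 0.322. DNAJC3 moved from place 23 to place 33 of the 36 genes, and DDIT3 from place 30 to place 26.

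**Figure D5:**
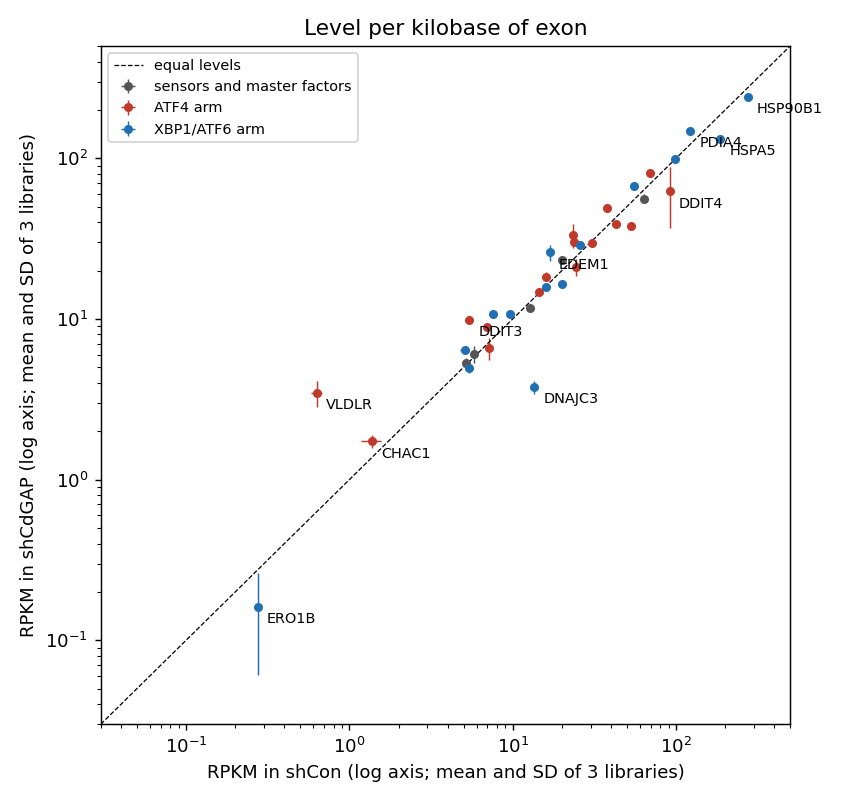
Level per kilobase of exon (RPKM, mean and SD of 3 libraries) in shCdGAP against shCon cells, both on log axes, with the dashed line for equal levels. Most of the 36 genes lie close to the line over a range from 0.275 to 275 RPKM in shCon cells, with VLDLR above it and DNAJC3 below it.

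The wider pathway was read from lists of genes that are no members. Of 39 further ATF4-responsive genes (transporters, aminoacyl-tRNA synthetases, amino acid enzymes and stress factors), 38 were tested. Of these 38 genes, 19 were higher and 6 (15.8%) lower at an adjusted p under 0.01. The shares over all tested genes were 24.1% higher and 22.0% lower. In either direction 65.8% of the tested list was called, against 46.2% of all tested genes. The median log2 fold change of the list was 0.20. The 3 highest were JDP2, ALDH1L2 and ATF3. ATF3, a stress-induced partner of the ATF4 network, had 8.71, 9.12 and 8.38 CPM in shCdGAP libraries against 3.38, 3.96 and 3.995 CPM in shCon libraries (log2 fold change 1.21, SE 0.0988, adjusted p = 1.00e-05). ALDH1L2, a mitochondrial folate enzyme, rose by 2.02 on the log2 scale. JDP2 had 54 reads in the shCdGAP libraries and 1 read in the shCon libraries, a ratio of 53.4 with an exact 95% interval of 9.19 to 2148 that covers counting error only. JDP2 passed the filter on low counts only through the shCdGAP libraries, and 18 genes of the list were higher when at least 10 reads were required in every library, where JDP2 was not tested. The 3 lowest were MTHFD1L, IARS1 and CBS. MTHFD1L, which acts beside SHMT2 and MTHFD2 in mitochondrial one-carbon metabolism, fell from 93.9, 95.3 and 90.4 CPM to 65.5, 64.2 and 65.8 CPM (log2 fold change -0.52, adjusted p = 4.91e-06). IARS1, on chromosome 9, fell by 0.48 on the log2 scale, near the median of -0.42 of its 20 neighbours. CBS, which makes cystathionine from homocysteine and serine, had a log2 fold change of -0.48 (adjusted p = 0.00758), a call lost in 7 of 12 alternatives. CBS lies on chromosome 21, where its 20 neighbours had a median of -0.47, while those of MTHFD1L had a median of 0.41.

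Of 52 further ER genes for folding, translocation and degradation, 51 were tested. Of these 23 (45.1%) were higher and 5 (9.80%) lower, against 24.1% and 22.0% of all tested genes. The median log2 fold change of the list was 0.12. Leaving out shCon replicate 2 reduced the higher genes to 16, and leaving out shCdGAP replicate 2 raised the lower genes to 9. Over all tested genes the higher calls fell from 3963 to 2987 and the lower calls rose from 3624 to 5022 under these settings. The 3 highest were KDELR3, a receptor that returns ER proteins from the Golgi (log2 fold change 1.11, adjusted p = 5.13e-06), DNAJC1, an ER membrane cochaperone (0.85), and FKBP14, an ER prolyl isomerase (0.83). Their 20 neighbours had medians of -0.13 for KDELR3, 0.47 for DNAJC1 and 0.47 for FKBP14. CANX and CALR, abundant ER chaperones named after their values were seen, were not called lower. CANX (calnexin) rose from 565, 564 and 569 CPM to 787, 750.3 and 743 CPM (log2 fold change 0.43, adjusted p = 1.09e-05), and CALR (calreticulin) did not pass, at 0.00453 (adjusted p = 0.915). KDELR3 had 22.0, 19.7 and 20.05 CPM in shCdGAP libraries against 9.25, 8.93 and 10.5 CPM in shCon libraries. The 3 lowest were UGGT2 on chromosome 13, TXNDC5, a disulfide isomerase on chromosome 6 (log2 fold change -0.53, adjusted p = 2.99e-05), and SEC61B, a subunit of the ER protein channel on chromosome 9 (-0.51, with a median of -0.53 for its neighbours).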

How the data were processed

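The data are RNA-seq of 3 shCdGAP and 3 shCon PC-3 samples. For each, the authors deposited 1 table of whole-number counts per gene, not normalized. Reads were aligned to GRCh38 with STAR 2.5.1b by the methods and counted with featureCounts (1.4.6 in the submitters' notes, 1.6.0 in the headers) on Ensembl 77 genes, where the headers give a strand-specific setting for read pairs and the methods a single-read kit. Multi-mapping reads and those in overlapping genes of one strand are left uncounted by such settings, so genes with near-identical copies are less complete.

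Counts were tested with edgeR 4.0.16 in R 4.3.3 (filterByExpr, TMM, robust quasi-likelihood F test without pairing) over 16439 genes with Benjamini-Hochberg adjustment. Standard errors (SE) were taken as |log2 fold change| over √F. Same-numbered libraries were not paired, since their numbers do not state a pairing. Their deviations correlated at 0.03 to 0.05 over genes, and those of the other pairs at -0.07 to 0.03. Every pair of libraries within a group differed by more than counting noise. An exact permutation of 3 against 3 libraries cannot go below p = 0.1, so no single-gene test of that kind was made. RefSeq promoter windows were searched by exact match. The scripts were tested on simulated counts.

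Members, lists and motifs were chosen with earlier results of these data known. All 36 members are named, and from each further list the 3 highest and 3 lowest fold changes among genes that passed and whose groups do not overlap. CANX and CALR of the further ER list were named outside this rule, after their values were seen. Cell markers were named for the check of the libraries. Alternatives were DESeq2 1.42.0, other scalings and filters, other thresholds, a replicate block, members on chromosomes 9 and 13 left out, and each library left out.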

Additional observations from a re-analysis of the deposited data

How the results depend on the processing

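Of the 36 members, 19 kept their direction and their side of the threshold in all 12 alternatives with a test, and 17 changed in at least 1. The count of higher members (14 in the report) ran from 9 to 15 when single libraries were left out, and that of lower members (5) from 5 to 11. It was 8 lower without a filter on low counts, 9 at an adjusted p under 0.05 and 3 without the members on chromosomes 9 and 13. In the ATF4 arm the higher genes (8) ran from 5 to 8 and the lower genes (1) from 1 to 4 without single libraries, and 2 were lower by DESeq2, 2 without a filter and 3 at 0.05. In the XBP1/ATF6 arm 2 genes were lower without chromosomes 9 and 13, against 4. The lower genes among the further ATF4 genes (6) ran from 3 to 9 and among the further ER genes (5) from 5 to 9 without single libraries. With the limit of 1, the lower members (1) ran from 1 to 2 without single libraries, and without chromosomes 9 and 13 there were 0 higher and 0 lower members.

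Signs turned only for values near zero or against neighbours. Without single libraries, EIF2AK3 ran from -0.0296 to 0.0658, ERN1 from -0.0552 to 0.11, CEBPG from -0.0166 to 0.0280 and PDIA6 from -0.0540 to 0.0217. PDIA6 was at -0.00720 by DESeq2 and SEL1L at 0.00743 with library size only. Relative to the 20 neighbouring genes HSPA5 stood at 0.31, MANF at -0.10, PHGDH at -0.0274, PDIA6 at -0.26 and ATF4 at 0.0182. With the replicate number as a block 13 members were higher and 6 lower: ATF5 was lost (adjusted p = 0.0225) and ATF4 gained (adjusted p = 0.00916). The labels give same-numbered libraries a shared number only, and whether they share a batch was not tested. The causes were not tested. Low depth limits ERO1B and CHAC1, whose levels were below 4 CPM.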
